A study of Mus musculus with 8 samples.

Results

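The set described here holds 10 genes of prostaglandin transport, synthesis and breakdown, all found by symbol among the 31910 genes of the deposited count table, measured in 8 mouse liver libraries. The members and the gene lists used below were chosen by function, with earlier results of these data known. The set was drawn up because Slco2a1 and Abcc4, its uptake and efflux transporters, had higher levels in SA. The difference of these 2 genes between the groups is therefore a description and carries no test. Of the 10 members, 8 had enough counts to be tested across all genes, and Ptgs2 and Ptgds did not.

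The 8 libraries come from livers of mice that received AAV2/9-Ctrl (Ctrl, 4 libraries) or AAV2/9-SA (SA, 4 libraries), adeno-associated viral vectors. By its title, the series asks how a protein of bacterial origin acts on acetyl-CoA carboxylase in mouse steatohepatitis. Its design names 3 feeding schemes, which are high fat for 24 weeks, high fat and high cholesterol plus sugared drinking water for 16 weeks, and chow. Each mouse received 4.8e10 vector genomes through the tail vein once 7 weeks of feeding had passed. Which of these diets each library stands for, and the promoter in the vector, the strain, sex and age of the mice, are not given in the sources used here. The labels do not say whether the 4 libraries of a group are separate animals, and p-values here reflect only how much these samples vary, which may be technical. Total counts were 14114145 to 15922829 in 7 libraries and 28184001 in SA 4, so that low genes are best counted there. Ctrl 4 had 9.23% of its counts on mitochondrial genes, where the other 7 libraries had 3.55% to 4.87%. The liver label was checked against 10 hepatocyte markers, albumin among them, which together held 75579 to 108189 CPM in Ctrl and 73298 to 93687 CPM in SA. CPM is the count of a gene relative to the total count of its library, per 1000000 counts, after TMM scaling, a correction for library composition.

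Prostaglandins are short-lived lipid signals made from arachidonic acid. A phospholipase frees the fatty acid from membranes, a cyclooxygenase (Ptgs1 or Ptgs2) turns it into prostaglandin H, and terminal synthases turn that into prostaglandin E, D, F, prostacyclin or thromboxane. Prostaglandins leave the cell partly through Abcc4 (also called MRP4), an ATP-driven pump, and are taken up by Slco2a1, the prostaglandin transporter. Inside the cell Hpgd, 15-hydroxyprostaglandin dehydrogenase, begins their inactivation and Ptgr1 reduces the product. In liver, Abcc4 sits on the blood-facing side of the hepatocyte and also exports bile acids, while Slco2a1 is known from endothelial cells of several organs, and Kupffer cells, the resident macrophages, are known makers of prostaglandins.

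The 2 transporters are shown first by the DNA just upstream of their start sites, because they are the members with the higher levels in SA. RefSeq promoter windows on GRCm38.p6 were found for all 10 members, with 2 start sites for Abcc4. The 250 bases before each start are printed 5′ to 3′ along the gene's strand. These motifs were searched on both strands, and capitals mark any match: the core of the antioxidant response element (TGACNNNGC), the cyclic AMP response element (TGACGTCA), the GC box (GGGCGG) and the TATA box (TATAAA).
Slco2a1, chr9:103008237-103008486, plus strand: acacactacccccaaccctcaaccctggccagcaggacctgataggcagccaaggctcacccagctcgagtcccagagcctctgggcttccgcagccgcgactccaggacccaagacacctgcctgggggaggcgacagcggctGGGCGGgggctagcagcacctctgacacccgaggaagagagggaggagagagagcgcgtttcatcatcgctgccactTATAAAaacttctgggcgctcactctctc
Abcc4, upstream start, chr14:118706220-118706469, minus strand: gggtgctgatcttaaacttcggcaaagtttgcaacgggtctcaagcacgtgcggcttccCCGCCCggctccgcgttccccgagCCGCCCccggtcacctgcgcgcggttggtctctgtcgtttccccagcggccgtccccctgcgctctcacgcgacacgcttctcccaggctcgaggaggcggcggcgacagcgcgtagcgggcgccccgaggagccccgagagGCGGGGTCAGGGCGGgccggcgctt
Abcc4, downstream start, chr14:118676932-118677181, minus strand: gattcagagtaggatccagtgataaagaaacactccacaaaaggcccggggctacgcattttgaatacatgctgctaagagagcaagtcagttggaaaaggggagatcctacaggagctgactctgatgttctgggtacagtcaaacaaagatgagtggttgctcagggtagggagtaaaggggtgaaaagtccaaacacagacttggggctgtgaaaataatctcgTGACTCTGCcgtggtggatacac

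The window of Slco2a1 held a TATA box 29 bases and a GC box 106 bases before the start. Each window of Abcc4 held the antioxidant response element core, 25 bases before the upstream start and 23 bases before the downstream start. At the upstream start the match is on the opposite strand and ends where a GC box begins, 16 bases before the start, so that both stand as 1 run of capitals. Further GC boxes lie 191 and 167 bases before that start. Of the 11 member windows, these 2 alone held that core, against 10.2% of 32851 windows of the same length in the table. GC boxes were in 7 member windows (32.7% of all windows), a TATA box in 1 (12.4% of all windows), and the cyclic AMP element in 0 (1.55% of all windows). The Abcc4 upstream window has 72.0% G and C, the downstream one 47.6% and that of Slco2a1 63.2%, against a median of 52.4%. A match of letters is a description of the sequence and says nothing of binding.

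The mean level of Slco2a1 in SA was 2.38 times that in Ctrl. It was at 21.5, 23.4, 30.9 and 29.9 CPM in Ctrl 1 to 4 and at 38.4, 70.8, 74.3 and 68.6 CPM in SA 1 to 4. The SA libraries all lay above the Ctrl libraries, with SA 1 closest to them and the other 3 SA libraries within a narrow band. Ctrl averaged 26.4 ± 4.66 CPM and SA averaged 63.0 ± 16.6 CPM (SD, n = 4), which edgeR put at 1.25 ± 0.21 (SE) as a log2 fold change. Levels in a whole liver cannot separate fewer cells of a type from less RNA per cell, here or in any result that follows.

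The mean level of Abcc4 in SA was 2.90 times that in Ctrl, with a much wider spread. It was at 5.66, 4.89, 6.09 and 6.17 CPM in Ctrl 1 to 4 and at 6.51, 25.3, 10.7 and 23.7 CPM in SA 1 to 4. SA 2 and SA 4 were high, SA 3 stood between, and SA 1 was only just above the highest Ctrl library. The highest SA library held 3.89 times the level of the lowest, against 1.26 times within Ctrl. Ctrl averaged 5.71 ± 0.586 CPM and SA averaged 16.6 ± 9.36 CPM (SD, n = 4), which edgeR put at 1.54 ± 0.36 (SE) as a log2 fold change. SA lay above Ctrl without overlap in both transporters, and in 1.66% of the 12358 genes tested. Since the transporters were chosen for this contrast, nothing is read from that.

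**Figure D1:**
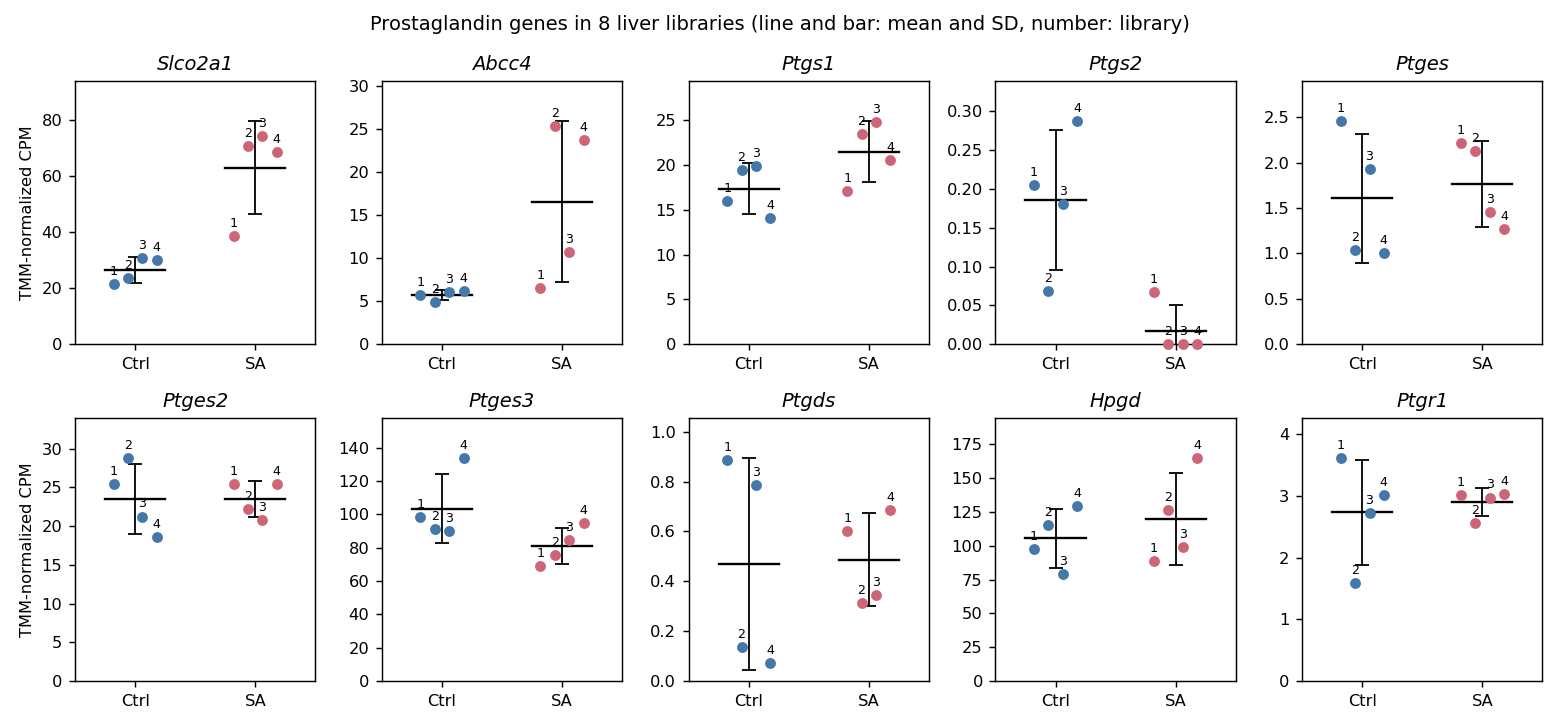
Each panel plots 1 member in TMM-normalized CPM against the group, with a numbered point for each library, a line at the mean and a bar of 1 SD (n = 4). Slco2a1 and Abcc4 are above Ctrl in all 4 SA libraries, Abcc4 in SA 1 only at 6.51 CPM against 6.17 CPM in Ctrl 4, and the other tested members overlap between the groups.

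The deposited FPKM table, made by the authors from the same libraries, does not show Slco2a1 higher in SA. FPKM divides the fragments of a gene by its length and by the depth of the library. Slco2a1 was at 4.15, 3.58, 7.13 and 1.77 FPKM in Ctrl 1 to 4 and at 0.960, 3.67, 9.49 and 1.41 FPKM in SA 1 to 4. The range of SA encloses that of Ctrl there, with SA 1 the lowest of all libraries and SA 3 the highest. On log2(FPKM + 1) the difference was -0.30 and on log2(FPKM + 0.1) it was -0.47 (limma), of the opposite sign to the counts. SA 4, with 68.6 CPM, had 1.41 FPKM, while Ctrl 1, with 21.5 CPM, had 4.15 FPKM.

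For a gene counted alike in both tables, CPM divided by FPKM should be near constant over libraries. For Slco2a1 this ratio ran from 4.33 to 6.54 in Ctrl 1 to 3 and stood at 16.9 in Ctrl 4. Within SA it was 40.02, 19.3, 7.82 and 48.6 in libraries 1 to 4. Over all 8 libraries it spanned 11.2-fold. The longest coding transcript of Slco2a1 in GENCODE M21 has 7.122 kilobases and all its exons together cover 13.545 kilobases. Ratios in Ctrl 4, SA 1, SA 2 and SA 4 lie above both lengths. The SD of the log2 ratio was 1.34, larger than in 89.6% of the 7940 tested genes found in both tables, whose median was 0.23. Ptgs1 also differed between the tables. Its ratio was 1.73 to 2.27 in Ctrl, 1.89 in SA 3 and 1.85 in SA 4, but 3.90 in SA 1 and 11.6 in SA 2. For Hpgd, Ptges3 and Ptges2 the ratio spanned 1.34-fold, 1.36-fold and 1.37-fold. Abcc4 is one of the 5 members with no row in the FPKM table, which lists 9265 genes, so its difference rests on the counts alone. What makes the tables differ was not tested.

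**Figure D2:**
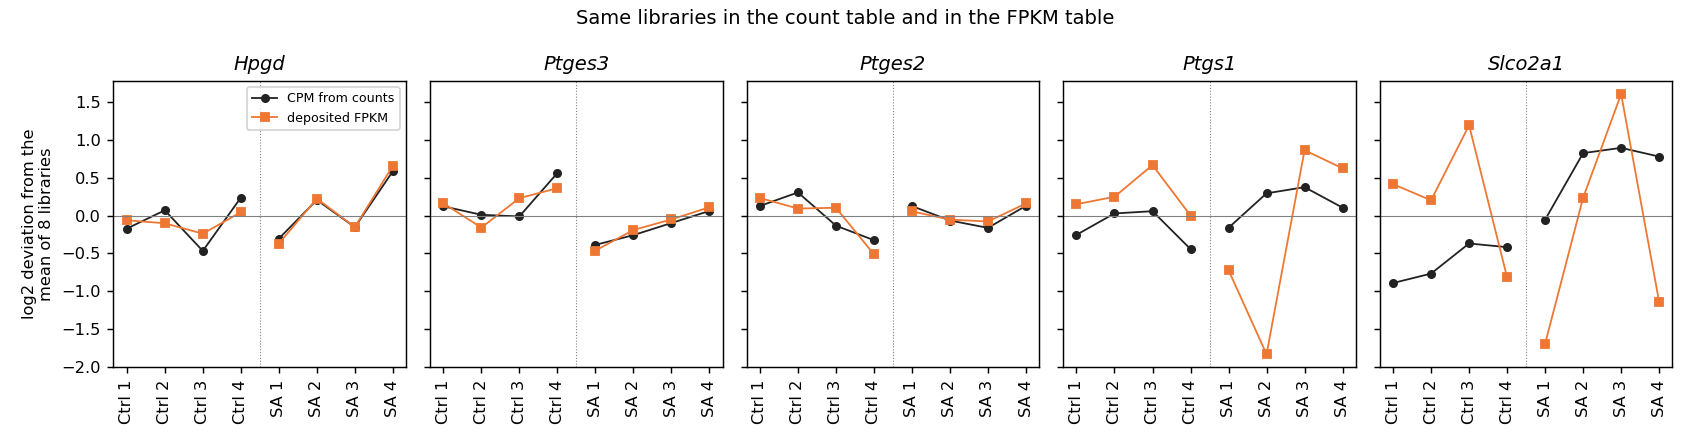
Each panel plots 1 member in the 8 libraries, as the log2 deviation from its own mean, in CPM from the counts (circles) and in the deposited FPKM (squares). Lines only join points of a group. The 2 tables follow each other for Hpgd, Ptges3 and Ptges2 and part for Ptgs1, most in SA 2 (23.5 CPM, 2.02 FPKM). For Slco2a1 they part in libraries of both groups, with CPM over FPKM from 4.33 in Ctrl 3 to 48.6 in SA 4.

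Among the other members, no synthase and no breakdown enzyme passed the test. Of the 8 members tested, edgeR called 0 at an adjusted p under 0.05, against 0.0162% of all genes, and 2 had an unadjusted p under 0.05, against 6.21% of all genes. These 2 are the transporters, which were chosen on this contrast, so nothing is read from their calls. DESeq2 called both, against 0.421% of all genes it tested. Without the filter on low counts edgeR called Slco2a1, against 0.0452% of genes. Without SA 1 it called both transporters, against 0.152% of genes, with log2 fold changes of 1.43 for Slco2a1 and 1.81 for Abcc4. SA 1 is the SA library nearest to Ctrl in both, so nothing is read from that run either. The other 6 tested members gave 4 positive and 2 negative differences, where 48.7% of all genes were positive. The set was drawn up with earlier results known, so these signs are a description. The median of these 6 members was 0.10 on the log2 scale, against -0.01 over all genes.

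The cyclooxygenases differ by orders of magnitude in these livers. Ptgs1, the constitutive cyclooxygenase, was at 16.0, 19.5, 19.9 and 14.1 CPM in Ctrl 1 to 4 and at 17.1, 23.5, 24.8 and 20.6 CPM in SA 1 to 4. The groups overlap, with SA 1 inside the Ctrl range and the other 3 SA libraries above it. On the log2 scale SA minus Ctrl was 0.30 ± 0.17 (SE), with a 95% interval of -0.07 to 0.68 and an adjusted p of 0.939 (edgeR). In FPKM the sign turned, at -0.42 on log2(FPKM + 1) (limma, adjusted p = 0.999). Ptgs2, the inducible cyclooxygenase, was near the limit of detection. It had 3, 1, 3 and 4 counts in Ctrl 1 to 4 and 1, 0, 0 and 0 counts in SA 1 to 4. Every Ctrl library thus held at least 1 count, and SA held a count in SA 1 alone although the SA libraries are together deeper. SA 1, at 0.0671 CPM, was close to Ctrl 2, at 0.0689 CPM. The ratio of SA to Ctrl over the summed counts, 1 against 11, was 0.0743, with a 95% exact binomial interval of 0.00173 to 0.511 that covers counting error only.

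The prostaglandin E synthases are Ptges, Ptges2 and Ptges3. Ptges, the inducible microsomal form that works with Ptgs2, was low, at 2.46, 1.03, 1.93 and 1.01 CPM in Ctrl 1 to 4 and at 2.21, 2.13, 1.45 and 1.27 CPM in SA 1 to 4. The SA values lie within the Ctrl range, and the log2 difference was 0.12 ± 0.38 (SE) with an adjusted p of 0.996 (edgeR). Its 95% interval of -0.70 to 0.93 reaches 1.91 times Ctrl. Ptges2, the membrane-associated form, had 18.6 to 28.8 CPM in Ctrl and 20.8 to 25.5 CPM in SA. The log2 difference was -0.00062 ± 0.16 (SE), with a 95% interval of -0.36 to 0.36 and an adjusted p of 0.9997 (edgeR).

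Ptges3, the cytosolic form and a co-chaperone of HSP90 (p23), stood lowest against Ctrl among the tested members. It was at 98.6, 91.2, 89.9 and 133.8 CPM in Ctrl 1 to 4 and at 69.2, 75.7, 84.6 and 94.5 CPM in SA 1 to 4. Only SA 4 reached into the Ctrl range, and Ctrl 4, the library with the high mitochondrial share, was the highest. The log2 difference was -0.35 ± 0.16 (SE), with a 95% interval of -0.71 to 0.00318 and an adjusted p of 0.814 (edgeR). Without Ctrl 4 it was -0.21. The FPKM values gave -0.29 on log2(FPKM + 1) (limma, adjusted p = 0.999). Ptgds, a prostaglandin D synthase of the lipocalin family, was at 0.0718 to 0.887 CPM in Ctrl and 0.313 to 0.687 CPM in SA, too low to be tested.

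Hpgd was the member with the highest level per kilobase, and its groups overlapped. It was at 97.4, 115.3, 79.4 and 129.4 CPM in Ctrl 1 to 4 and at 88.9, 126.7, 98.8 and 164.9 CPM in SA 1 to 4. SA 4 was the highest library, and the other 3 SA libraries lay within the Ctrl range. The log2 difference was 0.19 ± 0.21 (SE), with an adjusted p of 0.996 (edgeR) and a 95% interval from 0.832 to 1.56 times Ctrl. Without SA 4 it was -0.016. Ptgr1, which reduces 15-keto prostaglandins and also oxidises leukotriene B4, had 1.59 to 3.62 CPM in Ctrl and 2.56 to 3.04 CPM in SA, which gave 0.09 ± 0.29 (SE) on the log2 scale and an adjusted p of 0.996 (edgeR). All 4 SA libraries lay within the Ctrl range.

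Levels can be compared between members only per length, here CPM per kilobase of the longest coding transcript, as means over all 8 libraries. Hpgd stood at 66.9 and Ptges3 at 46.1 CPM per kilobase. Ptgs1 (6.78), Slco2a1 (6.28) and Ptges2 (4.72) came next. Abcc4 (1.95) and Ptgr1 (1.23) followed, then Ptgds (0.531), Ptges (0.462) and Ptgs2 (0.0227). With the length of all exons, Slco2a1 had 3.30 CPM per kilobase and ranked below Ptges2 (4.65), and Ptges (0.429) above Ptgds (0.290). Within Ctrl the neighbours overlapped, with Ptgs1 at 4.91 to 6.95, Ptges2 at 3.74 to 5.79 and Slco2a1 at 3.02 to 4.34 CPM per kilobase. In SA, Slco2a1 spanned 5.396 to 10.4 CPM per kilobase and lay above Ptges2, at 4.18 to 5.12. This order rests on its coding transcript length of 7.122 kilobases, where all its exons cover 13.545. In FPKM the SA means were 3.88 for Slco2a1 and 6.37 for Ptges2, the other way round. Hpgd and Ptges3 overlapped in Ctrl (47.2 to 76.9 and 44.9 to 66.9 CPM per kilobase) and not in SA (52.8 to 98.0 and 34.6 to 47.3).

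Slco2a1 and Abcc4 stood in the middle ranks of their transporter families, far under the leading carriers. In Ctrl, Slco2a1 stood at 3.71 ± 0.654 CPM per kilobase (SD, n = 4), rank 5 of the 13 listed SLCO genes, and in SA at 8.85 ± 2.32, rank 4. These ranks hold for the length of the longest coding transcript only. Slco1b2, the main hepatocyte uptake carrier of the family, stood at 624 ± 248 CPM per kilobase. None of the 5 other SLCO genes tested was called by edgeR, 0 had an unadjusted p under 0.05, and DESeq2 called 0. Slco1b2 had a log2 fold change of -0.23, Slco1a4 -0.51, Slco3a1 -0.11 and Slco1a1 0.10 (edgeR). Without Ctrl 4, Slco1a4 was at -0.029 and Slco1b2 at 0.033. Abcc4 was at 0.999 ± 0.103 CPM per kilobase in Ctrl and 2.90 ± 1.64 in SA (SD, n = 4), ranks 7 and 5 of the 11 listed ABCC genes. Abcc2, the bile-side conjugate pump, was at 88.8 ± 21.7 CPM per kilobase in Ctrl, and Abcc3, which like Abcc4 faces the blood, at 74.6 ± 8.91. Of the 8 other ABCC genes tested, 6 had a positive value and 0 were called by edgeR or DESeq2, with 0 at an unadjusted p under 0.05. Abcc12 had a log2 difference of 1.01 ± 0.51 (SE), with an adjusted p of 0.864 (edgeR), Abcc2 0.27, Abcc10 0.28 and Abcc1 -0.50. Without SA 4, Abcc12 was at 0.45.

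**Figure D3:**
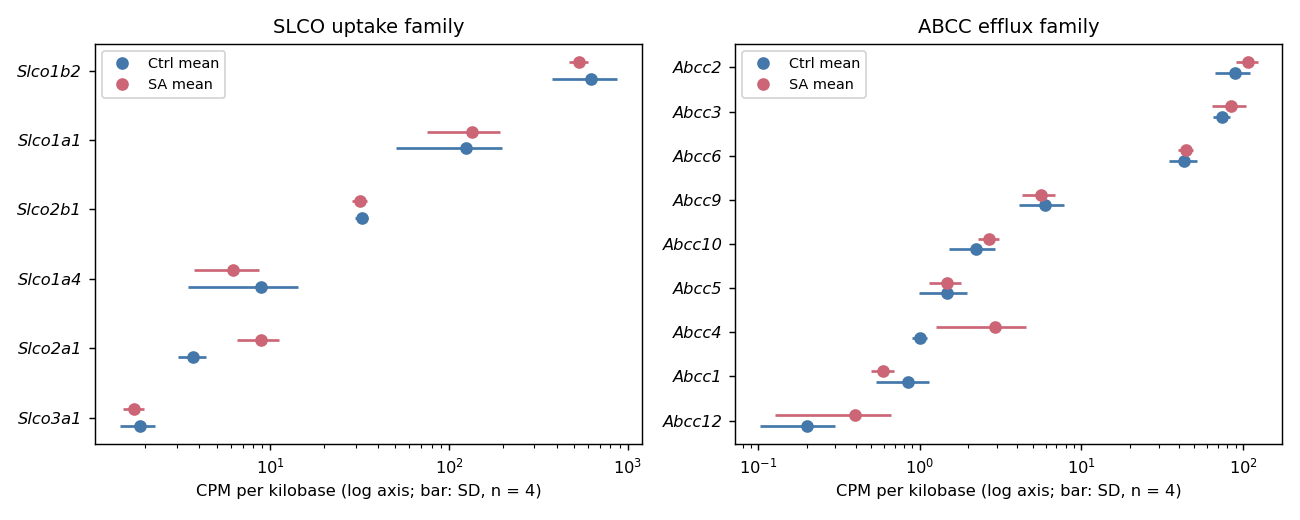
The plot gives the mean CPM per kilobase of transcript (log axis) of SLCO genes on the left and ABCC genes on the right, in Ctrl and SA, with bars of 1 SD (n = 4). Slco2a1 is at 3.71 in Ctrl and 8.85 in SA and Abcc4 at 0.999 and 2.90, both far under Slco1b2 and Abcc2. Genes whose 2 means sum to 0.3 or less are not drawn.

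Genes upstream and downstream of the members were taken from 5 lists that hold 56 other eicosanoid genes of the count table. Of the 35 tested, 20 were positive and 15 negative on the log2 scale, and their median was 0.05, against -0.01 over all genes. None was called by edgeR or DESeq2. Of the 35, 3 had an unadjusted p under 0.05 (edgeR), Cbr1, Cbr3 and Prxl2b, where 6.21% of all genes did. Of the list drawn up for the release of arachidonic acid or its precursors, 8 genes were tested, not all of them releasing enzymes. Mgll, the monoacylglycerol lipase, had 0.19 ± 0.14 and Pla2g4a, the cytosolic phospholipase A2, 0.33 ± 0.30 (SE, edgeR). Plaa had -0.19 and Pla2g6 -0.15.

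Of 5 tested other synthases 4 had a positive value. Cbr1, a carbonyl reductase that can turn prostaglandin E into F, was at 70.4, 39.2, 62.5 and 30.7 CPM in Ctrl 1 to 4 and at 47.8, 123.9, 56.2 and 194.8 CPM in SA 1 to 4. SA 2 and SA 4 were high and SA 1 and SA 3 lay inside the Ctrl range. On the log2 scale this gave 1.06 ± 0.40 (SE), with an adjusted p of 0.680 (edgeR), and 0.58 without SA 4. In the FPKM table Cbr1 was listed at 0.409 in SA 4 against 27.4 to 141.1 in the other 7 libraries, and its sign turned, at -0.86 on log2(FPKM + 1) (limma, adjusted p = 0.999). Prxl2b, a prostaglandin F synthase, was at 5.5996 to 12.4 CPM in Ctrl and at 8.92, 12.1, 13.4 and 25.7 CPM in SA 1 to 4, with SA 4 far above the rest. It had a log2 difference of 0.73 ± 0.32 (SE) and an adjusted p of 0.784 (edgeR), and 0.33 without SA 4. Tbxas1, the thromboxane synthase of macrophages and platelets, had 0.37 ± 0.21, and Ptgis, the prostacyclin synthase, 0.33 ± 0.32 (SE, edgeR).

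Of 12 tested genes on the list of other reductases and omega-hydroxylases, 9 had a positive value. Not all of them are known for prostaglandin breakdown, and Akr1c14 and Akr1d1 act on steroids. Cbr3, a close relative of Cbr1, was at 4.44, 1.10, 3.44 and 1.65 CPM in Ctrl 1 to 4 and at 3.62, 15.3, 2.63 and 21.5 CPM in SA 1 to 4, high in SA 2 and SA 4 alone. The log2 difference was 2.03 ± 0.62 (SE), with an adjusted p of 0.518 (edgeR), and 1.43 without SA 4. Cyp4a14, an omega-hydroxylase of fatty acids, had 1.09 ± 0.52, Akr1c14 0.38 ± 0.23 and Akr1d1 0.30 ± 0.21 (SE, edgeR). Only 2 of 9 prostanoid receptors were tested. Ptger4, a prostaglandin E receptor of macrophages and other cells, averaged 12.2 ± 3.28 CPM in Ctrl, against 13.2 ± 2.12 CPM in SA (SD, n = 4), and Tbxa2r, the thromboxane receptor, had a log2 fold change of -0.29 ± 0.41 (SE, edgeR). Ptger1, Ptger2 and Ptgdr were at 0 in every library. So were G6pdx, Akr1b3, Lrat and Itgam, among others of the lists, so a 0 in these counts is not read as absence. Ptgir, the prostacyclin receptor, was too low to be tested and was picked out after its values were seen. It was at 1.16, 0.345, 0.905 and 0.718 CPM in Ctrl 1 to 4 and at 0.335, 0.0626, 0.207 and 0.0723 CPM in SA 1 to 4, in all 47 and 11 counts. SA 1, at 0.335 CPM, was close to Ctrl 2, at 0.345 CPM. Because the gene was picked on these values, nothing is read from its difference. Among 8 tested genes of leukotriene and related lipids, 6 were negative, with Ltb4r1 at -0.71, Alox12 at -0.62, Cysltr1 at -0.56 and Cyp2j6 at -0.17 (edgeR).

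**Figure D4:**
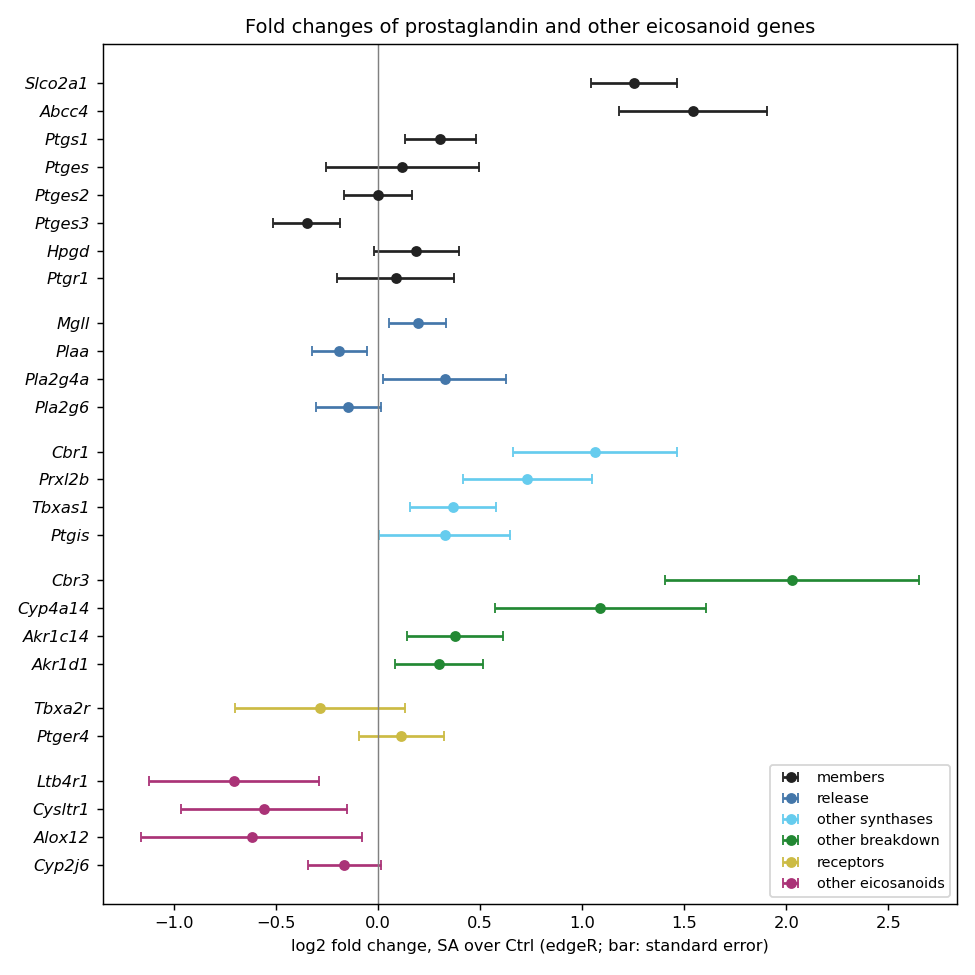
The plot gives the edgeR log2 fold change of SA over Ctrl on the horizontal axis, with a bar of 1 standard error, for the 8 tested members and for up to 4 genes with the smallest p of each other eicosanoid list. Abcc4 at 1.54 and Slco2a1 at 1.25 lead the members, and Cbr3 at 2.03 has the largest value and a wide error.

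Abcc4 is a known target of NRF2, the factor of the antioxidant response, and of the xenobiotic receptor CAR, so lists of both, which share genes with the lists above, were read beside it. Of 13 NRF2 targets tested 11 were positive, with a median of 0.32. Of the 13, 3 were at an unadjusted p under 0.05 (edgeR), against 6.21% of all genes, and 0 were called by edgeR or DESeq2. Gsta2, a glutathione transferase, was at 8.32, 47.5, 17.8 and 66.2 CPM in SA 1 to 4 and at 10.8 to 22.6 CPM in Ctrl. Gstm1 was at 1364, 2889, 1571 and 4135 CPM in SA 1 to 4 and at 968 to 1821 CPM in Ctrl. In both, SA 2 and SA 4 were above the Ctrl range, and without SA 4 the log2 difference was 0.61 for Gsta2, from 1.13, and 0.46 for Gstm1, from 0.83 (edgeR). The part of NRF2 in the Abcc4 values was not tested. Gclc had a log2 fold change of 0.32 ± 0.16 (SE, edgeR). Of 12 CAR and PXR targets 9 were positive, with a median of 0.30, 0 at an unadjusted p under 0.05 and 0 called by either tool, and Cyp3a11 had -0.37. A further list held hepatocyte transporters of bile acids and of other compounds. Of its 6 tested genes 4 were positive, with a median of 0.07 (edgeR; 0 at an unadjusted p under 0.05, and 0 called by either tool). Abcb1b had -0.71 and Abcb4 -0.22, neither of which is a bile acid carrier, and Abcc3 had 0.17 and Abcb11 0.13.

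The genes nearest in pattern were sought among 11291 tested and named genes with a mean of at least 1 CPM, as the root mean square distance between deviations of log2(CPM + 0.1) from each gene's own mean over the 8 libraries. Nearest to Abcc4 was Foxq1, a forkhead transcription factor, at a distance of 0.0960, which is 10.9% of the spread of Abcc4 itself (0.879). Foxq1 was at 4.55 to 5.595 CPM in Ctrl and at 6.24, 27.2, 10.0 and 21.7 CPM in SA 1 to 4, in the same order over the SA libraries as Abcc4. Such likeness follows from the search itself, which picked genes on these same values, so no shared control is read from it. Rec8, a meiotic cohesin (0.304), and Akr1c19, an aldo-keto reductase (0.314), followed at about 3 times that distance. Nearest to Slco2a1 were Csad, an enzyme of taurine synthesis (0.212), the kinase Wnk4 (0.232) and Gbp2b, a guanylate-binding protein (0.273). Csad was at 135.6 to 158.3 CPM in Ctrl and at 172.4, 380.6, 319.1 and 371.0 CPM in SA 1 to 4. That SA 1 is again closest to Ctrl also follows from the search. The transporters were at a distance of 0.432 from each other. Abcc4 ranked 56th among the genes nearest to Slco2a1, and Slco2a1 11th among those nearest to Abcc4.

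**Figure D5:**
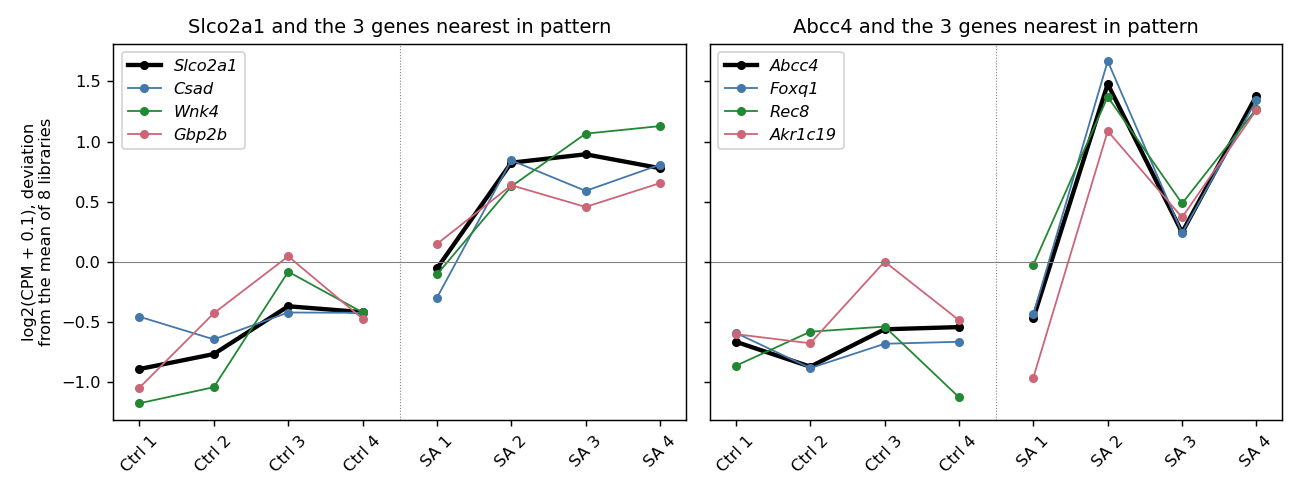
Both panels plot the deviation of log2(CPM + 0.1) from a gene's mean over the 8 libraries, on the left for Slco2a1 and on the right for Abcc4, each with the 3 nearest genes. Lines only join points of a group. Foxq1 lies on the line of Abcc4 (distance 0.0960), high in SA 2 and SA 4 and low in SA 1.

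Markers of the cells that could carry these genes were read beside them. These lists too were chosen with earlier results known, so their signs are a description. The 15 markers of liver endothelial cells summed to 654 to 721 CPM in Ctrl and 535 to 748 CPM in SA, and 5 of 14 tested were positive, with a median of -0.06. Large-vessel endothelial markers summed to 88.7 to 112 CPM in Ctrl and 82.0 to 89.8 CPM in SA, with 1 of 7 tested positive. The part of endothelial cells in the Slco2a1 values was not tested. Kupffer markers were positive in 12 of 12, with a median of 0.28, and summed to 577 to 935 CPM in Ctrl and 819 to 1162 CPM in SA. They lean the way that Ptgs1 and Tbxas1 do, and their part in those values was not tested. Markers of monocytes, recruited macrophages and neutrophils were negative in 10 of 10 tested, with a median of -1.07. They summed to 175 to 459 CPM in Ctrl and 151 to 177 CPM in SA. Stellate cell and myofibroblast markers were negative in 12 of 12 tested and summed to 616 to 1124 CPM in Ctrl and 521 to 581 CPM in SA. The part of either list in the low Ptgs2 counts of SA, 1 against 11 in Ctrl, was not tested. Of all these marker genes edgeR called 0. At an unadjusted p under 0.05 (edgeR) stood 7 of the monocyte, macrophage and neutrophil markers and 6 of the stellate markers. Over all genes that share was 6.21%. DESeq2 called 2 of the monocyte, macrophage and neutrophil markers, against 0.421% of all genes it tested. The 7 platelet markers summed to 4.24 to 5.25 CPM in Ctrl and 4.63 to 5.89 CPM in SA, and 4 of 7 mast cell markers were at 0 throughout. As for the receptors, such a 0 is not read as absence. Bile duct markers were negative in 6 of 7 tested, with a median of -0.89 and 3 at an unadjusted p under 0.05, and summed to 36.4 to 136 CPM in Ctrl and 39.4 to 67.0 CPM in SA. Spp1 weighs heavily in the bile duct sums, with a mean of 70.8 CPM in Ctrl and 38.1 CPM in SA. Epcam, another marker of that list, averaged 3.01 CPM in Ctrl and 1.46 CPM in SA. Mesothelial markers summed to 1.65 to 14.8 CPM in Ctrl and 4.36 to 8.18 CPM in SA. The bile duct and mesothelial lists share Krt19, so they are not independent.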

How the data were processed

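RNA sequencing covered 8 liver samples, 4 per vector. Frozen tissue was extracted with RNAiso Plus, and the library kit was NEBNext Ultra, per the labels' protocols, which do not describe it as strand-specific. The count table deposited by the authors holds whole-number read counts per gene with no normalization, and the authors' FPKM table holds FPKM values. Tools named are HISAT2, StringTie 2.2.1 and FastQC 0.19.7, and builds named without a role are GRCm39 and mm10, per the submitters' processing notes. The sources used here do not give the counting program or its build, and gene coordinates are therefore not printed, while promoter windows carry the build of the RefSeq table.

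Samples were grouped by title. Counts of all genes entered edgeR 4.0.16 (R 4.3.3; quasi-likelihood test), with TMM factors, filterByExpr (12358 genes kept) and Benjamini-Hochberg adjustment at 0.05. Standard errors are the log2 fold change divided by the root of F. Simulated counts with 200 changed genes tested the fit: 63% of 2-fold and 97% of 4-fold changes were called among 12243 genes, with 15 false calls in 175. The false calls were a larger share than the 0.05 set. The simulation used the dispersions of this fit and made 175 calls, where the data gave 2. The adjustment depends on how many genes change, so these shares do not give the power for the members. DESeq2 1.42.0 and limma 3.58.1 (on log2 of FPKM plus 1 or 0.1, for genes at 0.5 FPKM or more in at least 4 libraries) served as alternatives, as did DESeq2's size factors in edgeR, other filters, the replicate number as a block and leaving out each library. No libraries agreed within sampling noise. The members and gene lists were chosen with earlier results of these data known. Named genes were all members, up to 4 per list with the smallest p, and the 3 genes nearest in pattern to each transporter. Transcript lengths came from GENCODE M21. Opposite-strand gene models overlap Slco2a1, Abcc4 and Ptgs1, and reads of both strands cannot be told apart without strand.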

Additional observations from a re-analysis of the deposited data

Results flagged for a closer look

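In 104 groups of 4 libraries (the members in CPM and FPKM, and the named pathway genes in CPM, in each vector group), 5 had a library set apart from the other 3 by Dixon's criterion, and chance gives about 1 in 20. Slco2a1 in SA 1 was at 38.4 CPM, far under the other SA libraries. Ptgs2 in SA 1 was at 0.0671 CPM, which is 1 count against 0 in the other SA libraries. Ptgr1 in SA 2 was at 2.56 CPM, under the other SA libraries. Pla2g6 in SA 4 was at 145.4 CPM and Abcb1b in SA 1 was at 6.51 CPM, each above the other SA libraries.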

How the results depend on the processing

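The number of genes called higher in SA was 1, and 3 without the low-count filter, 23 with DESeq2, 0 with limma on log2(FPKM + 1) or log2(FPKM + 0.1), and 0 to 13 when libraries were left out in turn. The number called lower was 1, and 5 without the filter, 5 with the replicate number as a block, 39 with DESeq2, 3 with limma on either FPKM scale, and 0 to 6 when libraries were left out. Members called were 0, and 1 without the filter, 2 with DESeq2, and 0 to 2 when libraries were left out, both without SA 1. Among all genes the shares called were 0.0452% without the filter, 0.421% with DESeq2 and 0.152% without SA 1. The members called were the transporters alone, which were chosen on this contrast, so nothing is read from their calls. The cause of the changes in these counts was not tested. The 112 other pathway, family and target genes of the lists, 59 to 103 of them testable, had 0 calls under each alternative run. Slco2a1 turned negative only in FPKM (-0.30 and -0.47 with the 2 pseudocounts) and ranged from 1.16 to 1.43 when libraries were left out, and Abcc4, which has no FPKM, from 1.27 to 1.81. Signs also turned with FPKM for Ptgs1 (-0.42 and -0.52), Cbr1 (-0.86 and -1.21), Slco1b2 (0.40 and 0.62), Cyp2c37 (-0.075 and -0.077) and Ptges2 (0.033 and 0.041). Ptges2 was also at 0.0016 without the filter and 0.013 with the replicate block. With libraries left out, Ptges ranged from -0.052 to 0.39, Ptges2 from -0.10 to 0.12, Hpgd from -0.016 to 0.31, Ptgr1 from -0.097 to 0.25, Ptger4 from -0.0014 to 0.30, Slco1b2 from -0.40 to 0.033, Slco3a1 from -0.20 to 0.039 and Slco1a1 from -0.18 to 0.42. The deviations of same-numbered libraries had correlations of -0.02, -0.02, 0.22 and -0.22, and 1 of 4 matched its own number best. Such values cannot show whether equal numbers share a day or a batch, and the samples were treated as unpaired. Ptgs2, Ptgds and 7 of 9 prostanoid receptors had too few counts to be tested, and whether depth or the counting set this was not tested.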
